A study of Rattus norvegicus with 10 samples.

Results

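The genes described here encode proteins that the airway lining secretes: the secretoglobins Scgb1a1, Scgb3a2 and Scgb3a1, the BPI-fold proteins Bpifa1 and Bpifb1, and the lectin Reg3g. They were chosen by name, and all 6 names were found in the deposited table of 22250 rat genes, 1 row each. The libraries were 10 RNA-seq libraries of rat lung tissue, 5 titled XBS and 5 titled MOD. The design text describes a rat model of neutrophilic asthma made with lipopolysaccharide (LPS), a bacterial cell wall component, and ovalbumin (OVA), an egg protein used as allergen, and a treatment abbreviated SP. The titles expand neither XBS nor MOD and tie neither to SP, and strain, age, dose and day were not given in the sources used here, so XBS libraries are set against MOD libraries with no treatment named. Whether each library is a separate rat is not stated in the labels, and the p-values cover the scatter of these libraries, part of which may be technical.

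Secretoglobins are small secreted proteins that pair into dimers. Scgb1a1 encodes the main secreted product of club cells, the secretory cells that line the small airways of rodents, and Scgb3a2 is made by club cells as well. Scgb3a1 is a related secretoglobin known mostly from the larger airways. Bpifa1 and Bpifb1 encode proteins with the lipid-binding fold of bactericidal/permeability-increasing protein (BPI). Bpifa1 lowers surface tension in airway fluid and acts against bacteria, and Bpifb1 is known from goblet cells and glands. Reg3g encodes a C-type lectin that, in the mouse, binds the cell wall of Gram-positive bacteria and is induced by interleukin 22.

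The labels also name the human bronchial line 16HBE, while the table carries rat Ensembl gene identifiers and markers of many lung cell types. Alveolar type 2 genes were abundant: the 9 listed genes summed to between 16437 and 33433 CPM (counts scaled to library size) in XBS and reached 24460 to 31623 CPM in MOD. All 15 ciliated cell genes in the table were tested. Of the 5 basal cell genes in the table only Ngfr was tested, and of the 4 genes of serous and gland cells Prr4 and Pip had 0 counts in every library. Libraries held between 11998979 and 15518929 counts, so that 3 counts stood for 0.193 to 0.25 CPM (counting error only).

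XBS2 and XBS3 stood apart from the other 8 libraries in airway genes. Both lay below all 8 others in 15 of 15 ciliated cell genes and in 6 of 13 club cell genes tested. The same held for 0 of 9 alveolar type 2, 0 of 7 alveolar type 1 and 0 of 10 neutrophil genes, and for 7.57% of all 14320 genes tested. A list score is the mean log2 CPM of the list's tested genes after each is centred over the libraries. The ciliated list score was -1.80 in both XBS2 and XBS3, and between -0.14 and 0.96 in the other 8. The neutrophil list score was highest in XBS2, at 0.88. It was 0.06 in XBS3 and between -0.43 and 0.41 in the other 8, so XBS2 also stood out beyond airway genes. In bulk tissue, fewer airway cells and less RNA per airway cell cannot be told apart. The part of airway content in the results below was not tested beyond values without these 2 libraries or with the ciliated score as a covariate. Both libraries also lay below all 8 others for Scgb1a1, Scgb3a2, Scgb3a1 and Bpifb1. Leaving them out could only raise the XBS mean of these genes, so the shifts seen without them are not a test.

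The promoters of 5 members are shown. Scgb1a1 with Scgb3a2, and Scgb3a1 with Bpifb1, were chosen because they moved together across libraries, as described below. Bpifa1 was added because it shares the BPI-fold gene cluster of Bpifb1, with Bpifa5 between them. Each promoter runs from 250 bases before to 50 bases after the RefSeq gene start on build GRCr8, 5′ to 3′ on the gene's strand. Capitals mark matches to binding motifs of FOXA factors and of NKX2-1, which are regulators of airway epithelium, and to the TATA box. For FOXA, the first word searched was TGTTTAC. Its variants were TGTTTGC first, then, with another second letter, TATTTAC and lastly, with both letters changed, TATTTGC. For NKX2-1 the words searched were CAAGTG and, as a separate word, CTCAAG. FOXA and NKX2-1 words were searched on both strands, and the TATA word, TATAAA, on the gene strand.
Scgb1a1 (chr1:215409637-215409936, - strand): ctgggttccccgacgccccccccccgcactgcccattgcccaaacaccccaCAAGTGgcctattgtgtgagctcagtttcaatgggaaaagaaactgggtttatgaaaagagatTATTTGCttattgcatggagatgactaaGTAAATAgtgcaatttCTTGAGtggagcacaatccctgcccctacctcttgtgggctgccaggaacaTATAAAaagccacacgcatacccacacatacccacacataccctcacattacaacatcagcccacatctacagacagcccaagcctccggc
Scgb3a2 (chr18:36183495-36183794, + strand): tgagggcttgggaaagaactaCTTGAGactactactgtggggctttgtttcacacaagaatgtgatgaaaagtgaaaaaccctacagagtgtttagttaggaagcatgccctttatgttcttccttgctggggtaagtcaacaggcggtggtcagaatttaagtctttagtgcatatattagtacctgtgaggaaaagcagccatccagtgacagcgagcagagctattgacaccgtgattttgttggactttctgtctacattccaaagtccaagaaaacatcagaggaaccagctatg
Scgb3a1 (chr10:34468916-34469215, + strand): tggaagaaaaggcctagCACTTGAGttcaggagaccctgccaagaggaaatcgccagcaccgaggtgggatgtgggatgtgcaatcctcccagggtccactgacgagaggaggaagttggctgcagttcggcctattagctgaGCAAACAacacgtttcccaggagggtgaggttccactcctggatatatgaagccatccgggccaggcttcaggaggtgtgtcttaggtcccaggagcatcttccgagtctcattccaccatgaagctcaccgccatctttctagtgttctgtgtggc
Bpifb1 (chr3:163132901-163133200, + strand): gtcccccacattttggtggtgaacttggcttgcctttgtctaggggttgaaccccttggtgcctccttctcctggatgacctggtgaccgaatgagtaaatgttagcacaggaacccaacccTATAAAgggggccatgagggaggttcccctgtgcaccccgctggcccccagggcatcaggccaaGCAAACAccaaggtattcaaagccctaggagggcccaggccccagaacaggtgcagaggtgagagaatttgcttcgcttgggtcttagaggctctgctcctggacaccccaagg
Bpifa1 (chr3:163087715-163088014, + strand): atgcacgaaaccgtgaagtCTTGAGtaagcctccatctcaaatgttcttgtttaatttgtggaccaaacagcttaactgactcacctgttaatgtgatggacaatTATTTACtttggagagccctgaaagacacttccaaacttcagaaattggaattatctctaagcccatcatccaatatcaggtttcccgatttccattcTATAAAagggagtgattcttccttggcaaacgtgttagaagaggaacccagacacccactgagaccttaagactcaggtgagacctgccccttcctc
The Scgb1a1 promoter held FOXA matches starting 136 and 108 bases before the gene start, NKX2-1 matches at 199 and 92 bases, and a TATA match at 41 bases. Scgb3a2 held a single match, to NKX2-1. Scgb3a1 held a FOXA match 107 bases before the start and 2 overlapping NKX2-1 matches. Bpifb1 held a FOXA match at 64 bases and a TATA match at 128 bases. Bpifa1 held FOXA, NKX2-1 and TATA matches. Among 33469 rat promoters of this length in the same table, 14.2% held a FOXA, 27% an NKX2-1 and 8.8% a TATA match. A match is a run of letters, not evidence of binding.

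Compared per gene length, in the FPKM values that the authors deposited, the 6 genes covered the whole range of expression. Scgb1a1 averaged 9292 ± 5245 FPKM in XBS and 14965 ± 2884 FPKM in MOD (SD, n = 5 each). It ranked between 1st and 3rd of all 22250 genes in 8 libraries, and stood at ranks 11 and 10 in XBS2 and XBS3. Scgb3a2 averaged 530 ± 366 FPKM in XBS and 934 ± 150 FPKM in MOD. Bpifb1 averaged 63.1 ± 77.9 FPKM in XBS and 90.5 ± 90.2 FPKM in MOD, and Scgb3a1 averaged 36.9 ± 61.3 FPKM in XBS and 22.6 ± 27.7 FPKM in MOD. Bpifa1 averaged 11.6 ± 25.3 FPKM in XBS and 3.58 ± 5.08 FPKM in MOD. The order Scgb1a1, Scgb3a2, Bpifb1, Scgb3a1, Bpifa1 held within each of the 10 libraries. Across libraries only Scgb1a1 and Scgb3a2 were apart, with a lowest Scgb1a1 value of 3462 FPKM and a highest Scgb3a2 value of 1090 FPKM; each other neighbouring pair overlapped.

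None of the members passed the test between the groups. Of the 4 that had enough counts to be tested, 0 passed an adjusted p of 0.05 by edgeR's quasi-likelihood test, against 0.0768% of all genes tested (11 of 14320; 0.0279% higher and 0.0489% lower in XBS). Without XBS2 and XBS3 the members past the threshold were again 0, against 0.0206% of all genes tested. At an unadjusted p under 0.05 the count was 0 by edgeR with all libraries and neither covariate nor block, against 13.2% of all genes tested. DESeq2 and limma voom with sample weights also gave 0 past the adjusted threshold, against 2.43% and 0.468% of all genes tested, and at an unadjusted p under 0.05 they gave 0 and 2 (Scgb1a1 and Scgb3a2), against 14.3% and 17.7% of all genes tested. XBS and MOD libraries overlapped for all 4, while 2.74% of all genes tested had groups that did not overlap. Bpifa1 and Reg3g did not pass the filter on low counts and are described by their counts.

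Scgb1a1 (ENSRNOG00000020196, chromosome 1, 225279676 to 225283326, minus strand in the deposited table) had a lower mean in XBS, by an amount that was smaller once XBS2 and XBS3 were left out. It stood at 6998, 1934, 2158, 7761 and 7003 CPM in XBS1 to XBS5, against 8612, 7554, 10835, 8954 and 6666 CPM in MOD1 to MOD5. XBS1, XBS4 and XBS5 lay inside the MOD range, while XBS2 and XBS3 were 3.96-fold and 3.55-fold below the median of the other 8 libraries. The log2 fold change was -0.72 ± 0.38 (SE), 1.65-fold lower in XBS (adjusted p = 0.438, edgeR). Without XBS2 and XBS3 it was -0.23 ± 0.16, with 7254 ± 439 CPM in the other XBS libraries (SD, n = 3; adjusted p = 0.582, edgeR).

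Scgb3a2 (ENSRNOG00000026912, chromosome 18, 38292701 to 38295831, plus strand), whose protein is studied as a growth factor of the developing mouse lung, followed Scgb1a1 closely. It stood at 381, 68.6, 94.1, 484 and 486 CPM in XBS1 to XBS5, against 568, 429, 634, 610 and 497 CPM in MOD1 to MOD5. XBS2 and XBS3 were again the low libraries, 7.16-fold and 5.22-fold below the median of the other 8, and XBS1 also lay below the MOD range. The log2 fold change was -0.85 ± 0.49 (SE; 1.81-fold lower in XBS, adjusted p = 0.464, edgeR), and -0.28 ± 0.14 without XBS2 and XBS3 (adjusted p = 0.482). With the ciliated list score as a covariate it was -0.58 ± 0.15 (SE) for Scgb3a2 and -0.46 ± 0.17 for Scgb1a1, with adjusted p = 0.179 and 0.321 by edgeR.

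The balance of these 2 secretoglobins differed in the same libraries. The ratio of Scgb1a1 to Scgb3a2, both in FPKM, was 18.9, 29.0, 23.6, 16.5 and 14.8 in XBS1 to XBS5, against 15.6, 18.1, 17.6, 15.1 and 13.8 in MOD1 to MOD5. XBS2 and XBS3 had the highest ratios of the 10 libraries, so that Scgb3a2 was lower there than Scgb1a1 alone would give. Within MOD both genes varied little, with an SD of log2 CPM of 0.26 for Scgb1a1 and 0.23 for Scgb3a2, against 1.00 and 1.37 within XBS. Over all genes tested the median SD within groups was 0.22.

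**Figure D1:**
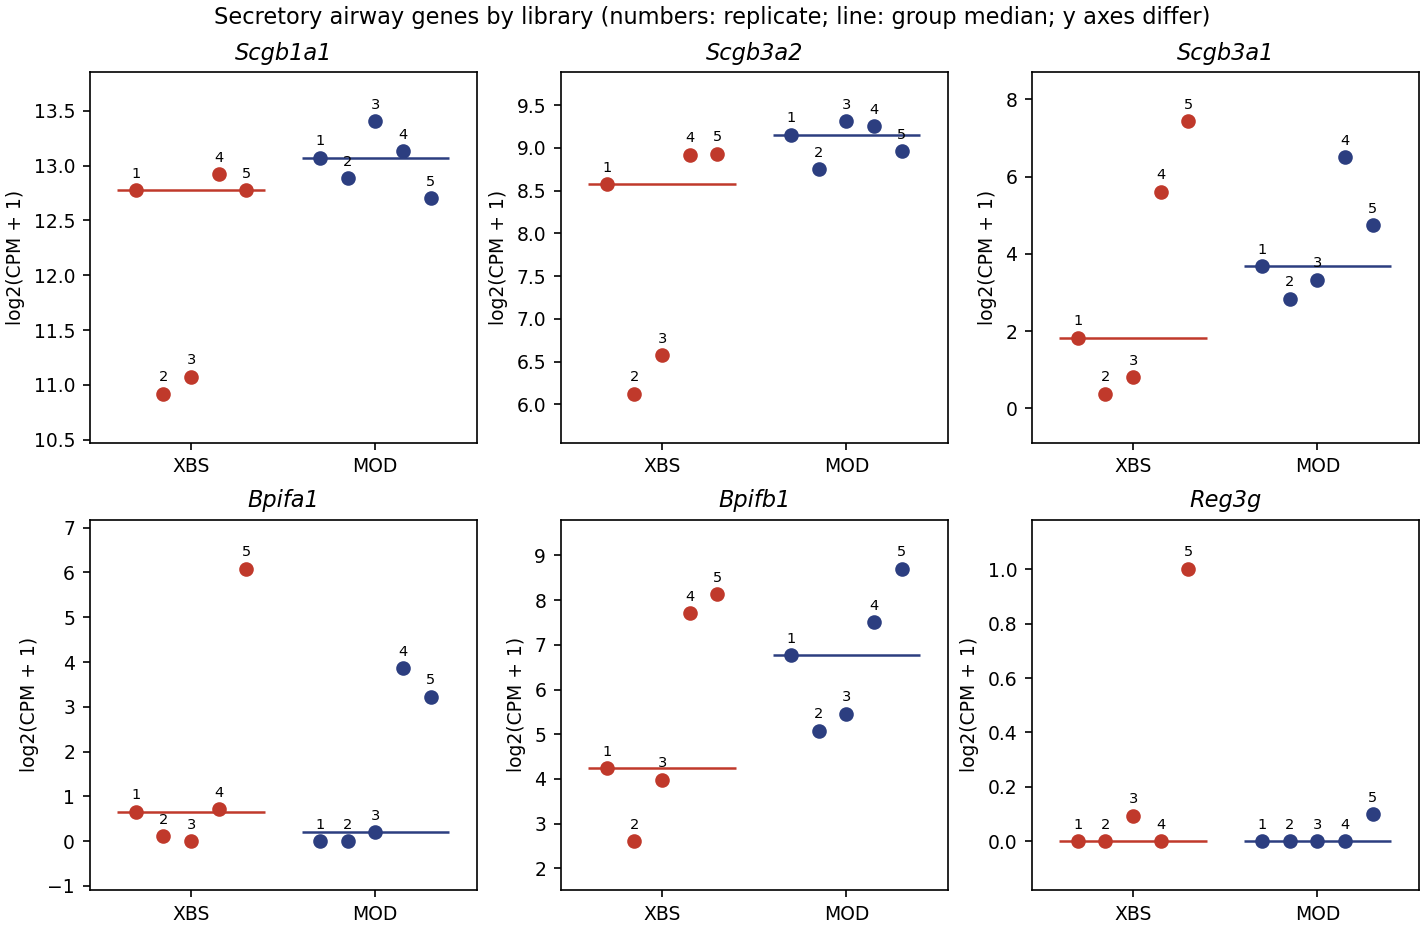
Level of each member in each library as log2(CPM + 1), with XBS left of MOD, replicate numbers above the points and a line at the group median; the vertical axes differ between panels. For Scgb1a1 and Scgb3a2 the low points are XBS2 and XBS3, and for Scgb3a1, Bpifa1 and Bpifb1 the high points include XBS5, MOD4 and MOD5.

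Scgb3a1 (ENSRNOG00000002718, chromosome 10, 35133252 to 35135466, plus strand) varied over a 579-fold range, with no shared direction between the groups. The low end of that range rests on few reads, as Scgb3a1 had 4 counts in XBS2 and 11 in XBS3. It stood at 2.55, 0.296, 0.741, 47.6 and 171 CPM in XBS1 to XBS5, against 11.8, 6.13, 9.07, 89.1 and 25.7 CPM in MOD1 to MOD5. XBS5, MOD4 and XBS4 were the highest, and the 3 lowest libraries were XBS2, XBS3 and XBS1. Its log2 fold change was 0.65 ± 1.32 (SE; adjusted p = 0.855, edgeR), and -1.13 ± 1.27 without XBS5 alone (adjusted p = 0.669, edgeR). With all libraries kept it was also negative by limma voom with sample weights (-1.09) and with the replicate number as a block (-1.16). The sign thus depended on XBS5 and on the model. Without MOD4 the edgeR value was 1.76 ± 1.43 (adjusted p = 0.743), and without XBS2 and XBS3 it was 1.38 ± 1.19 (adjusted p = 0.657, edgeR). With the ciliated list score as a covariate it was 0.01 ± 1.94 (adjusted p = 0.998, edgeR). Its SD of log2 CPM within groups was 2.85, and only 4 of the 14320 genes tested had a larger one.

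Bpifb1 (ENSRNOG00000015468, chromosome 3, 149668102 to 149702399, plus strand) showed much the same order of libraries. It stood at 17.9, 5.11, 14.8, 207 and 278 CPM in XBS1 to XBS5, against 108, 32.7, 42.9, 180 and 416 CPM in MOD1 to MOD5. XBS1, XBS2 and XBS3 lay below every MOD library, while XBS4 and XBS5 lay above all but MOD5. The log2 fold change was -0.57 ± 1.04 (SE; adjusted p = 0.837, edgeR). It turned to 0.11 ± 1.02 without XBS2 and XBS3 (adjusted p = 0.972) and to 0.20 ± 1.06 without MOD5 (adjusted p = 0.959), and it was -1.34 ± 1.09 without XBS5 (adjusted p = 0.554). Its SD of log2 CPM within groups was 2.07, larger than that of 99.8% of the genes tested.

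**Figure D2:**
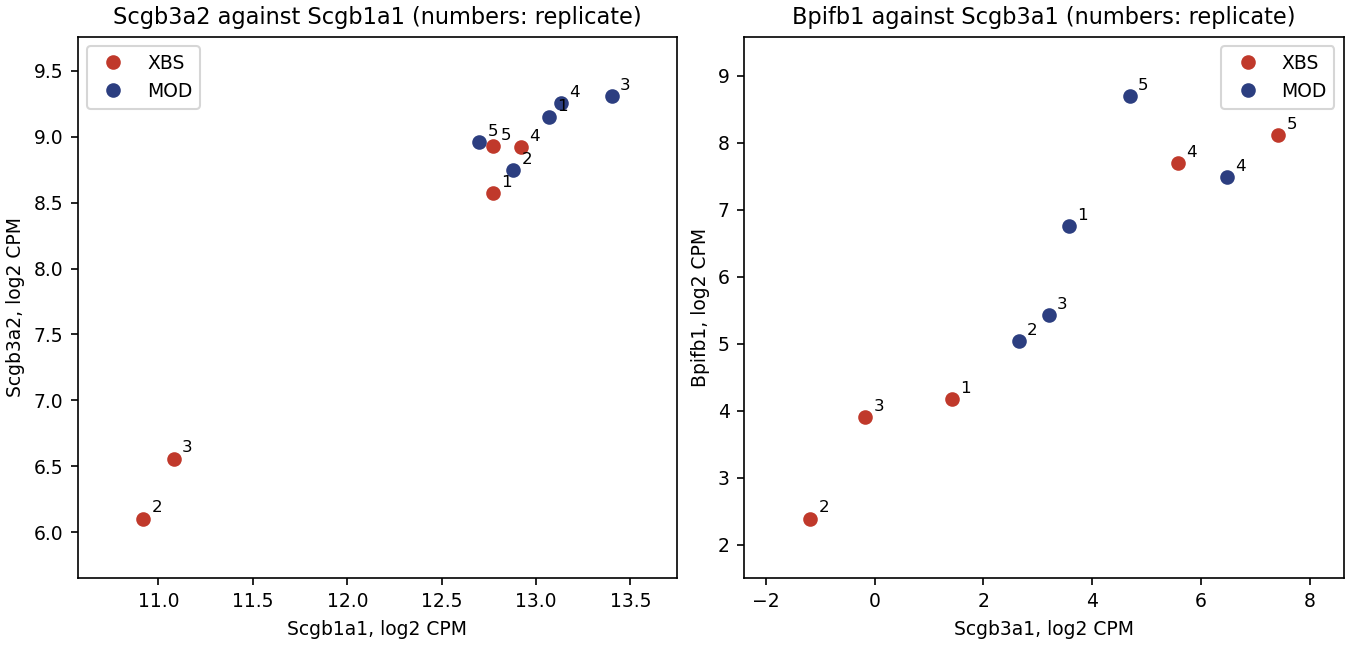
Log2 CPM of Scgb3a2 against Scgb1a1 (left) and of Bpifb1 against Scgb3a1 (right) in the 10 libraries, XBS in red and MOD in blue, with replicate numbers. On the left, XBS2 and XBS3 sit apart from a tight group of 8; on the right, the libraries spread along the whole range from XBS2 to XBS5 and MOD5.

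Bpifa1 (ENSRNOG00000013859, chromosome 3, 149624712 to 149630613, plus strand) was read mostly in 3 libraries. Its counts were 7, 1, 0, 10 and 934 in XBS1 to XBS5, against 0, 0, 2, 204 and 118 in MOD1 to MOD5. The 934 counts of XBS5 correspond to 68.9 CPM before TMM scaling (95% Wilson interval 64.6 to 73.5). In 7 of the 10 libraries it had 10 counts or fewer, a level at which the filter removed it. Fitted without the filter, an alternative setting, its log2 fold change was 1.60 ± 1.94 (SE; adjusted p = 0.758, edgeR). Once XBS2 and XBS3 were left out, the smaller group held 3 libraries rather than 5, and the filter asks for counts in that many. Bpifa1 then passed through XBS5, MOD4 and MOD5, with a log2 fold change of 2.35 ± 1.80 (adjusted p = 0.623, edgeR). Nearly all its XBS counts were those of XBS5.

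Reg3g (ENSRNOG00000006579, chromosome 4, 109529679 to 109532234, minus strand) was close to the limit of detection. Its counts were 0, 0, 1, 0 and 14 in XBS1 to XBS5, against 0, 0, 0, 0 and 1 in MOD1 to MOD5. XBS5, the library with the most Bpifa1 and Scgb3a1, held 14 of its counts, or 1.03 CPM before TMM scaling (95% Wilson interval 0.615 to 1.73). In every other library it lay below 3 counts, so a difference between the groups was not detectable at this depth (adjusted p = 0.465 when fitted without the filter, edgeR). Its relatives Reg3b, Reg1a and Reg4 had 14, 1 and 5 counts over all libraries, and Reg3a had 0.

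Bpifa1 and Bpifb1 lie in a cluster of 12 BPI-fold genes of chromosome 3, which spans 149358881 to 149724352. These positions are the table's own, on a rat build that the sources used here do not name. Only Bpifb1 and Bpifa5 of this cluster were tested. Bpifa5, whose gene lies between those of Bpifa1 and Bpifb1, summed to 1242 counts over all libraries, close to the 1276 counts of Bpifa1, but these were spread over every library. It stood at 6.74, 2.52, 1.95, 12.3 and 14.6 CPM in XBS1 to XBS5, against 13.3, 5.33, 11.4, 8.71 and 10.8 CPM in MOD1 to MOD5 (log2 fold change -0.37 ± 0.51, adjusted p = 0.776, edgeR). Bpifb6, Bpifb3 and Bpifa3 had 0 counts in every library, and the remaining 6 genes had between 1 and 90 counts in all. At these positions the 12 genes all lie on the plus strand and do not overlap one another. The sources used here do not give the strand setting of the counting. Reads of any other genes that overlap them could therefore not be told apart.

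**Figure D3:**
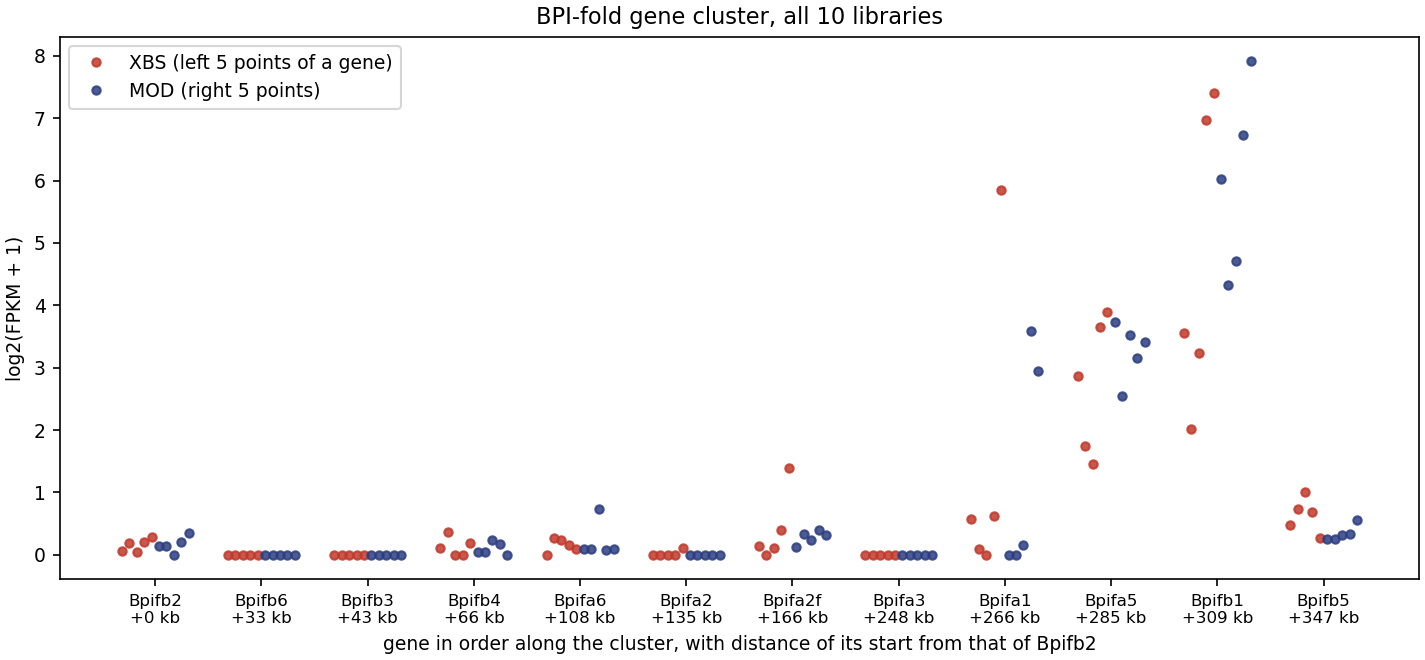
Level of the 12 BPI-fold genes of the chromosome 3 cluster as log2(FPKM + 1), in gene order, with the distance of each start from that of Bpifb2 in kb and 10 points per gene (XBS in red on the left, MOD in blue on the right). Bpifa5 is above 1 on this axis in all 10 libraries, Bpifb1 spreads more widely, and Bpifa1 stands well above 0 in 3 libraries.

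Among the wider families, few relatives were expressed. Of 7 other secretoglobin genes listed, 5 had 0 counts in every library, and Scgb1c1, the 1 tested, had a log2 fold change of 0.05 ± 0.38 (SE; adjusted p = 0.964, edgeR). Of 14 relatives with a BPI fold, 3 were tested, and 0 rose, 0 fell and 3 did not pass (0 at an unadjusted p under 0.05 by edgeR, and 0 past the adjusted threshold by DESeq2 or voom). Besides Bpifa5 these were Pltp, which transfers phospholipids between lipoproteins, at 154 ± 43.8 CPM in XBS and 166 ± 26.4 CPM in MOD, and Lbp, which carries LPS to its receptor, at 51.5 ± 15.1 CPM in XBS and 51.8 ± 2.75 CPM in MOD (SD, n = 5 each).

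The genes whose levels ran most like each member over the 10 libraries differed between the 2 pairs. Likeness was taken as Pearson's r of log2 CPM over all genes tested, as a description; the libraries share their airway content, and XBS2 and XBS3 weigh heavily in it. For Scgb1a1 the closest were Scgb3a2 (r = 0.99 over 10 libraries, 0.79 over the 8 without XBS2 and XBS3), Proc, which encodes protein C of blood clotting (0.96 and 0.82), and Bmpr1b, a receptor of bone morphogenetic proteins (0.96 and 0.56). For Scgb3a2 they were Scgb1a1, then Dnali1, a dynein light chain of cilia (0.97 and 0.60), and Zfp831, a zinc finger gene (0.97 and 0.52). For Scgb3a1 they included Tmc5, a membrane protein (0.97 and 0.93), and Dmrt2, a transcription factor (0.97 and 0.93). For Bpifb1 they were Hp, which encodes haptoglobin (0.98 and 0.98), Adam28, a metalloprotease (0.96 and 0.98), and Pecr, a peroxisomal enzyme (0.96 and 0.92). For Scgb3a1 and Bpifb1 every partner named kept an r above 0.9 without XBS2 and XBS3, while for Scgb1a1 and Scgb3a2 it lay between 0.52 and 0.82.

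Of the 6 goblet cell genes tested, 4 had the same high libraries as Scgb3a1 and Bpifb1. XBS4, XBS5, MOD4 and MOD5 were the 4 highest libraries for both of these members and for 4 of 6 goblet genes tested (Muc5b, Agr2, Clca1 and Gp2), as for 1.45% of all genes tested. The other goblet genes tested, Spdef and Fcgbp, did not share this order and varied little. The lowest and highest CPM of Spdef were 7.53 and 10.1 among XBS libraries, and 7.14 and 10.5 among MOD libraries. For Fcgbp they were 6.33 and 8.75 (XBS), and 5.65 and 8.75 (MOD). Clca1, a secreted protein of mucous cells, stood at 6.99, 1.11, 1.48, 41.2 and 141 CPM in XBS1 to XBS5, against 23.4, 4.04, 5.93, 51.2 and 50.2 CPM in MOD1 to MOD5. Gp2, a secreted glycoprotein, reached 85.3 CPM in XBS5 and 127 CPM in MOD5. The summed level of the 9 goblet genes in the table ran from 24.8 to 555 CPM in XBS, against a MOD range of 47.4 to 425 CPM. Of the 6 tested, 0 rose, 0 fell and 6 did not pass by edgeR (0 at an unadjusted p under 0.05, and 0 past the adjusted threshold by DESeq2 or voom), with a median log2 fold change of 0.04 beside 0.01 over all genes tested. Without XBS2 and XBS3 that median was 0.34, with 5 of 6 positive. The titles give 2 groups only, and what XBS4, XBS5, MOD4 and MOD5 share was not tested.

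**Figure D4:**
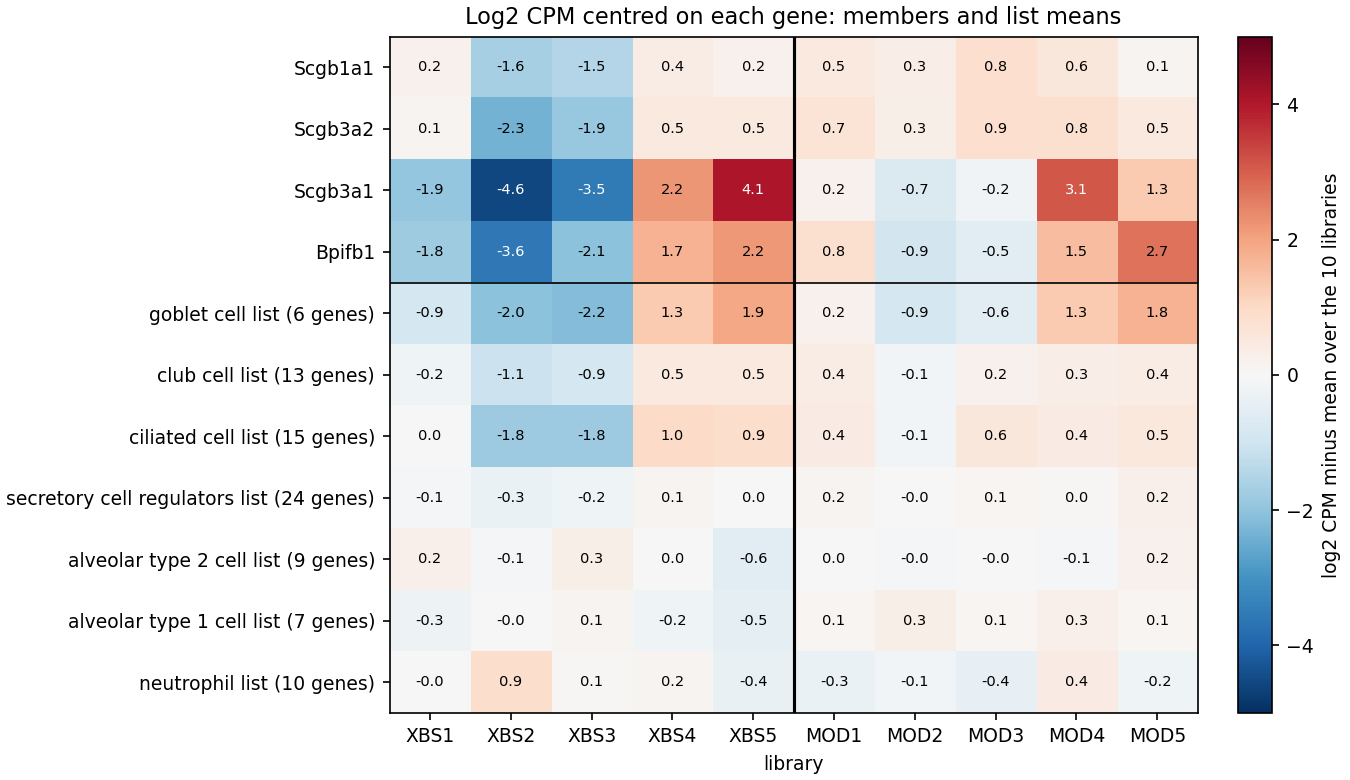
Log2 CPM of the 4 tested members, and mean over list genes, each centred on its mean over the 10 libraries (red above, blue below; values printed in the cells, XBS left of the line and MOD right). Scgb1a1, Scgb3a2 and the ciliated and club lists share the 2 low libraries XBS2 and XBS3. Scgb3a1, Bpifb1 and the goblet list are also high in XBS4, XBS5, MOD4 and MOD5, and the alveolar lists stay within 0.6 of 0.

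Other club cell genes followed the secretoglobins only in part. The club list score was -1.09 in XBS2 and -0.87 in XBS3, and between -0.22 and 0.50 in the other 8 libraries. Of the 13 tested, 6 were lower in both than in all 8 others, beside 7.57% of all genes tested. Between the groups, 1 of the 13 fell, 0 rose and the other 12 did not pass by edgeR, while 0.0489% of all genes tested fell. At an unadjusted p under 0.05 there were 4 of 13 (3 lower in XBS), beside 13.2% of all genes tested. DESeq2 called 1 and voom 1 of the 13, beside 2.43% and 0.468% of all genes tested. In XBS 10 of the 13 had a negative fold change, with a median log2 fold change of -0.20, beside 0.01 over all genes tested; without XBS2 and XBS3 the median was 0.06, with 5 negative. Their summed level was 1384 to 2054 CPM in XBS, against 1974 to 2129 CPM in MOD. The gene that fell was Cyp4b1, a cytochrome P450 of lung, at 273, 258, 225, 272 and 219 CPM in XBS1 to XBS5, against 395, 396, 402, 377 and 406 CPM in MOD1 to MOD5 (log2 fold change -0.66 ± 0.08, adjusted p = 0.0104, edgeR). Unlike Scgb1a1, it was as low in XBS5 as in XBS2 and XBS3. Its call ended without XBS2 and XBS3 (log2 fold change -0.63, adjusted p = 0.0715), where fewer libraries were fitted. Ces1d, a carboxylesterase, was at 388 ± 85.3 CPM in XBS and 515 ± 30.5 CPM in MOD (SD, n = 5 each), and did not pass (adjusted p = 0.248, edgeR). Its groups did not overlap, as for 2.74% of all genes tested, but nearly touched, at 491.6 CPM in XBS5 and 491.7 CPM in MOD1. Kcnk5, a potassium channel, was at 3.47 ± 0.712 CPM in XBS and 5.57 ± 1.56 CPM in MOD (adjusted p = 0.279, edgeR). Gsto1, a glutathione transferase, was at 17.2 ± 1.92 CPM in XBS and 14.2 ± 1.33 CPM in MOD (adjusted p = 0.335, edgeR). Cyp2f4, a P450 enriched in club cells, stood at 5.18 CPM in XBS2 and 311 CPM in XBS5, and within 65.5 to 128 CPM in MOD.

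Among 24 transcription factors and Notch pathway genes of airway secretory cells, 0 rose, 1 fell and 23 did not pass by edgeR. Of all genes tested, 0.0489% fell. The median log2 fold change was -0.16, and -0.04 without XBS2 and XBS3. At an unadjusted p under 0.05 there were 6 of 24 (5 lower in XBS), beside 13.2% of all genes tested. DESeq2 called 3 and voom 1 of the 24, beside 2.43% and 0.468% of all genes tested. The 1 that fell was Klf5, a Krüppel-like factor of epithelial cells, at 67.0 ± 4.82 CPM in XBS and 102 ± 5.37 CPM in MOD (SD, n = 5 each; log2 fold change -0.61 ± 0.07, adjusted p = 0.00714, edgeR). Its call ended without XBS2 and XBS3, at nearly the same size (log2 fold change -0.60, adjusted p = 0.0715). Cebpd, a C/EBP factor, was at 85.6 ± 15.7 CPM in XBS and 160 ± 41.9 CPM in MOD (adjusted p = 0.0899, edgeR). Its groups did not overlap, at most 98.9 CPM in XBS and at least 113 CPM in MOD, as for 2.74% of all genes tested. Nkx2-1 and Foxa2, whose families' motifs are marked in the promoters above, had log2 fold changes of 0.18 ± 0.19 and -0.13 ± 0.11 (SE; adjusted p = 0.697 and 0.589, edgeR). Of the 24, 5 were lower in XBS2 and XBS3 than in all 8 other libraries, beside 7.57% of all genes tested. These were Foxa1, Sox2, Sox9, Grhl2 and Jag2, while Nkx2-1 and Foxa2 were not among them.

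**Figure D5:**
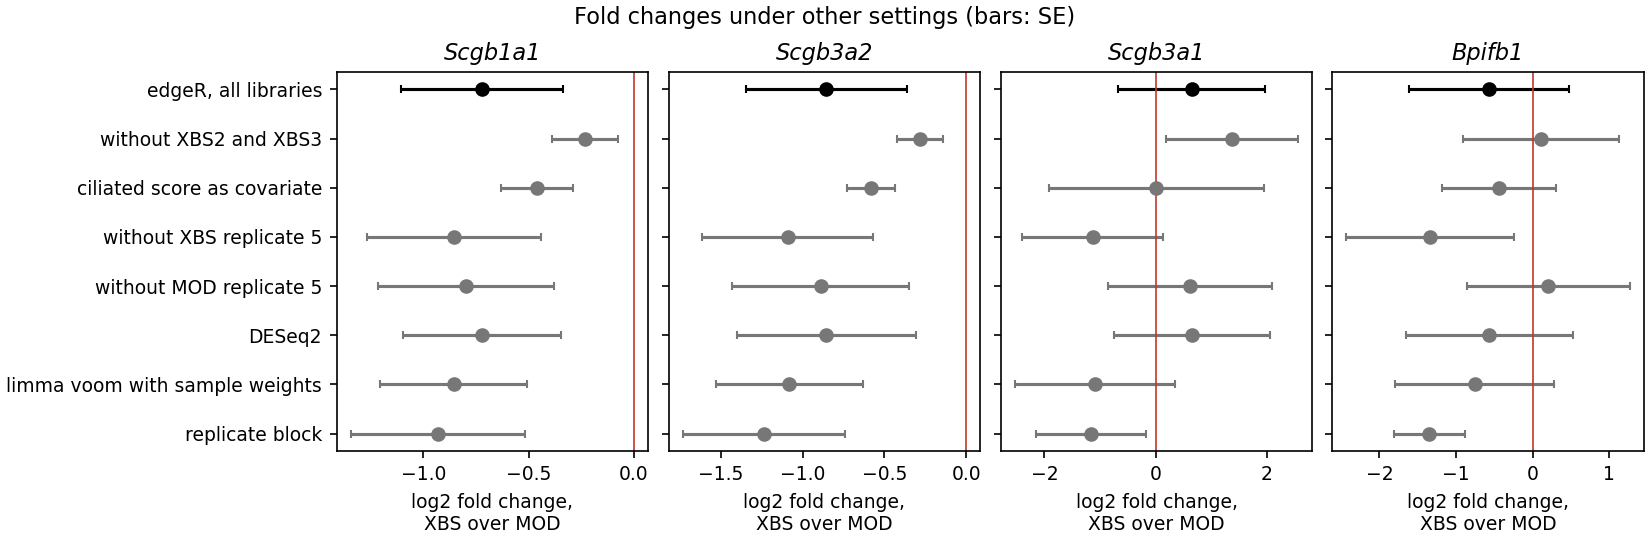
Log2 fold change of the 4 tested members, XBS over MOD, with SE bars, from edgeR with all libraries (black) and from 7 other settings (grey). Scgb1a1 and Scgb3a2 stay below 0 in each setting shown and come nearest to it without XBS2 and XBS3, at -0.23 and -0.28, while Scgb3a1 and Bpifb1 lie on both sides of 0.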

How the data were processed

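RNA was measured by RNA-seq in 10 rat lung libraries, grouped by title. Per the labels' protocols, Trizol served for RNA extraction, and purified, fragmented messenger RNA was made into PCR-amplified libraries. Per the file headers, the authors deposited read counts and FPKM for each gene. Deposited FPKM values followed from the count, the length and the column total (relative deviation at most 8.82e-08) and served to compare genes. The sources used here name no aligner, counter or rat build for the table.

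After filterByExpr (minimum count 10 and total 15), 14320 genes with 99.921% of counts remained. They were scaled by TMM and XBS was tested over MOD with robust quasi-likelihood fits of edgeR 4.0.16 (R 4.3.3). P-values were adjusted by Benjamini-Hochberg over all 14320, at a threshold of 0.05. CPM are counts over TMM-adjusted library size; list scores and likeness use log2 CPM with prior count 2. The SE of a log2 fold change was derived from its F statistic. The fits were also run on simulated counts. These were drawn with no effect shared by genes of a library, such as the low airway genes of XBS2 and XBS3. No pair of libraries in a group was within sampling noise of each other (smallest chi-square per degree of freedom 9.46).

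Alternatives were DESeq2 1.42.0, voom in limma 3.58.1, RLE and upper quartile scaling, 2 filters, the replicate number as a block, a ciliated covariate, and libraries left out. The members, gene lists and tests were chosen with earlier results of these data known. Named genes were the members, the 2 of smallest p per list (4 for club cells) plus any past the threshold, the 3 most alike per tested member (1 for Scgb3a1 is not reported here), and genes named beside a count; ciliated, alveolar, neutrophil and gland genes so chosen are given only through their lists. Nkx2-1, Foxa2, Cyp2f4, Spdef and Fcgbp were named outside this rule, after their values were seen. Promoters are from RefSeq (GRCr8); all 6 members matched.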

Additional observations from a re-analysis of the deposited data

Results flagged for a closer look

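For 5 of 12 member and group combinations, a single library stood far from the other 4 of its group, by the size of its gap relative to the group's range. For normally distributed values chance flags about 1 in 20, a rate that need not hold for CPM values as skewed as these. Scgb3a1 was at 171 CPM in XBS5, against at most 47.6 CPM in the other XBS libraries, and at 89.1 CPM in MOD4, against at most 25.7 CPM in the other MOD libraries. Bpifa1 was at 67.0 CPM in XBS5, against at most 0.633 CPM in the other XBS libraries. Reg3g was at 1.00 CPM in XBS5, with at most 0.0673 CPM in the other XBS libraries, and at 0.0708 CPM in MOD5, a single count, with 0 in the other MOD libraries, a pattern that this measure always singles out. XBS5 was thus the high library in 3 of these combinations. XBS2 and XBS3, the low libraries for Scgb1a1 and Scgb3a2, were not singled out by this measure, which looks for 1 library at a time.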

How the results depend on the processing

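Scgb1a1 and Scgb3a2 kept a negative log2 fold change, without passing, in all 19 alternatives; with single libraries left out it ran from -0.91 to -0.51 and from -1.09 to -0.60. Scgb3a1 changed sign by limma voom with sample weights (-1.09) and with the replicate number as a block (-1.16), and ran from -1.13 to 1.76 with single libraries left out. Bpifb1 changed sign without XBS2 and XBS3 (0.11) and ran from -1.34 to 0.20. Over 76 values for the 4 members the lowest adjusted p was 0.179. The number of genes past the threshold, 11 by edgeR, was 348 by DESeq2 (202 higher, 146 lower), 67 by voom, 18 with the ciliated covariate, 3 without XBS2 and XBS3, 1 with the replicate block and 4 to 15 with single libraries left out (4 or 5 without XBS1, XBS2, XBS3, MOD2 or MOD4, 7 without MOD3); the cause was not tested. The deviations of same-numbered libraries correlated above 0.1 in 3 of 5 pairs (-0.125 to 0.329), not in all, so the numbers were not taken as pairs. With the block, Bpifb1 was at -1.35 ± 0.46 (SE; adjusted p = 0.281, edgeR), and Cyp4b1 and Klf5 did not pass (adjusted p = 0.118 and 0.101); both passed in all 10 runs without a single library. Bpifa1 and Reg3g, below the filter, had no value with all libraries and the filter against which to compare others. Depth limits Reg3g, and Bpifa1 in 7 libraries.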

Other observations

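Cytokine genes that in the mouse act upstream of Reg3g were measured beside it. The ligand genes Il22, Il17a and Il6 had 7, 12 and 22 counts over all 10 libraries, and Il17f had 0. Of 12 tested genes of interleukin 22, 17 and 6 receptor signalling, 0 rose, 0 fell and 12 did not pass by edgeR, with 4 at an unadjusted p under 0.05 (13.2% of all genes tested were) and 0 past the adjusted threshold by DESeq2 or voom. Socs3, a feedback inhibitor of interleukin 6 and 22 signalling, was at 40.7 ± 6.05 CPM in XBS and 56.9 ± 11.6 CPM in MOD (SD, n = 5 each; adjusted p = 0.228, edgeR). Tyk2, a kinase of the interleukin 6 and 22 receptors, was at 82.6 ± 9.55 CPM in XBS and 68.1 ± 8.67 CPM in MOD (adjusted p = 0.309, edgeR).

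Of 12 tested airway defence proteins, 0 rose, 0 fell and 12 did not pass by edgeR, with 1 of 12 at an unadjusted p under 0.05, beside the same 13.2%, and 0 past the adjusted threshold by DESeq2 or voom. That 1 was Lcn2, an iron-binding defence protein, at 403, 401, 855, 727 and 404 CPM in XBS1 to XBS5, against 305, 367, 352, 406 and 269 CPM in MOD1 to MOD5 (adjusted p = 0.25, edgeR). It was high in XBS3, a library with little Scgb1a1, and in XBS4, a library with much. S100a9, a calcium-binding protein of neutrophils, was at 186 ± 109 CPM in XBS and 126 ± 43.8 CPM in MOD (adjusted p = 0.486, edgeR). The 10 neutrophil genes summed to 413 to 1020 CPM in XBS, against 382 to 609 CPM in MOD, with 0 of 10 past the adjusted threshold by edgeR, DESeq2 or voom and 2 of 10 at an unadjusted p under 0.05 by edgeR, again beside 13.2%.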
